A study of Mus musculus with 16 samples.

Results

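The widest domains of trimethylated histone H3 lysine 36 (H3K36me3) in wild-type mouse neural stem cells were described. They were the 396 autosomal islands of at least 60 kb among the 8207 autosomal islands of the wild-type H3K36me3 list, which holds 8389 islands in all. An island is a stretch of the genome that the authors' caller found enriched in chromatin immunoprecipitation followed by sequencing (ChIP-seq). Width chose these islands, so their width, their wild-type H3K36me3 reads and the length of the genes under them are given as a description and support nothing. The 396 islands covered 30.8 Mb, with a median width of 72.0 kb and a largest width of 177.6 kb.

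The neural stem cells came from the telencephalic cortex of mouse embryos at E14.5 and were grown as neurospheres before plating on Matrigel and fixation. H3K4me1, H3K4me3, H3K27ac, H3K27me3, H3K36me2 and H3K36me3 were profiled in wild-type cells and in Setd5+/- cells, which are heterozygous for Setd5 by their label. SETD5 with a V5 tag was profiled in wild-type cells labelled WT-S5V5. Each group was 1 library, so no value below has a replicate error and no test between groups was possible. The labels do not state the strain, the nature of the Setd5 allele or how the V5 tag was introduced, and no V5 list from untagged cells was used.

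H3K36me3 is laid down behind elongating RNA polymerase II, mainly by SETD2, and accumulates over the bodies of transcribed genes towards their 3′ ends. Promoters carry H3K4me3 instead, and enhancers, which often lie in introns of long genes, carry H3K4me1 and, when active, H3K27ac. SETD5 is a SET-domain protein linked to intellectual disability, and the series title describes it as a methyltransferase of this same lysine.

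Promoter sequences are shown for 3 of these islands' genes, because they stand for the extremes of the set: the widest island (Syne1), the island with least H3K36me3 left in Setd5+/- cells (Lrp1), and the widest island wholly under SETD5-V5 with a promoter shown (Cul1; the wider Arfgef1 and Cep192 islands and those set aside below for their read density have none here). Each is the 250 bases before the annotated start, 5′ to 3′ on the gene's strand, from RefSeq on GRCm38.p6. Capitals mark GGGCGG, the core of the GC box bound by SP factors, in either orientation. The motifs searched on both strands were this one, the NRF1 palindrome, CCGGAAGT, CCAAT and TATAAA, and the Lrp1 window also held the NRF1 palindrome.
Syne1, chr10:5550693-5550942, minus strand: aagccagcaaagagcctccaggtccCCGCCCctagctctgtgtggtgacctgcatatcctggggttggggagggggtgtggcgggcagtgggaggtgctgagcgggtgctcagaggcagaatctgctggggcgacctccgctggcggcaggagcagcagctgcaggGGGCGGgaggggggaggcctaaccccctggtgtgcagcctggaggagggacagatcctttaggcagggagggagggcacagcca
Lrp1, chr10:127621149-127621398, minus strand: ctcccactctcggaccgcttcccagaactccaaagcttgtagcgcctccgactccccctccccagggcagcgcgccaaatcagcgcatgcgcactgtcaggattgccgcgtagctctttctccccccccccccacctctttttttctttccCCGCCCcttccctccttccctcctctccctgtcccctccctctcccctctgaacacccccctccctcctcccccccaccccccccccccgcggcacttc
Cul1, chr6:47453482-47453731, plus strand: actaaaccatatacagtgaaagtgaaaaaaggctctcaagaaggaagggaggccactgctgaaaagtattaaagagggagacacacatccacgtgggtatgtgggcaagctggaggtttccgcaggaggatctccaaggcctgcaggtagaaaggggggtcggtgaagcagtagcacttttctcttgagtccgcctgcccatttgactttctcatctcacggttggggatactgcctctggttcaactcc
The GC content was 68.0% for Syne1, 67.2% for Lrp1 and 50.8% for Cul1. With 50 bases after the start added, all 3 windows touched an H3K4me3 island in wild type, and none touched a wild-type H3K36me3 or a SETD5-V5 island.

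The promoters of the genes that fill these islands were rich in GC as a group. Among 241 such genes with a promoter in the table, the median GC content was 63.6%, against 55.2% over all 17492 promoters of protein-coding genes. GGGCGG was present in 67.6% of them, against 42.7% of all promoters, and the NRF1 palindrome in 3.32% against 1.06%. CCGGAAGT, a site of ETS factors, was present in 4.98% against 3.82%. CCAAT was present in 32.0% against 36.5%, and the TATA box TATAAA in 3.73% against 12.4%. An H3K4me3 island touched 95.9% of these windows against 57.0% of all, and an H3K27ac island 52.7% against 27.02%. A match is a description of the letters and not a bound site, and genes with H3K36me3 are transcribed genes, which all promoters together are not.

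Some libraries, chromosomes and islands stand apart and are named before the results. Reads inside islands ranged from 1019278 to 5093126 over the 13 libraries, with 2468530 for wild-type H3K36me3, 3561439 for Setd5+/- H3K36me3 and 2464878 for SETD5-V5. Relative to islands of the other autosomes, the wide islands of chromosome 1 had a median log2 ratio of reads per kb (Setd5+/- over wild type) of 0.43, those of chromosome 15 of 0.23 and those of chromosome 4 of −0.00. The main results are also given without these 3 chromosomes, which leaves 306 islands. Chromosome 4 was taken out with them because of earlier results of these data, and not for this ratio. A further 5 islands had more than 25 reads per kb, against 9.40 to 21.7 for the other 391: the island over Cwc22, a splicing factor gene, at 203.1 reads per kb, and 4 neighbours on chromosome 8 between 19679201 and 20442400. H3K27ac lay over 78.6% of the Cwc22 island in both genotypes, and H3K27me3 over 13.0% to 40.8% of the other 4 in wild type and 19.0% to 72.7% in Setd5+/- cells. All 5 were wholly under SETD5-V5 and wholly kept in Setd5+/- cells, and they are set aside where stated. Of 9 neural stem cell and radial glia markers, 8 had H3K4me3 at a gene end, and Sox2, Pax6, Vim, Fabp7 and Slc1a3 had H3K36me3 over at least 25% of the gene. None of 6 neuronal, 4 oligodendrocyte, 5 microglial or blood and 5 endothelial or mesenchymal markers had that coverage, and of 3 astrocyte markers only Aldh1l1 did. The stem cell markers Nes, Hes1, Hes5 and Prom1 had 0%, and Prom1 also had H3K27me3 at a gene end. H3K4me3 separated the cell types less. It lay at a gene end of 3 neuronal markers, 1 oligodendrocyte, 1 astrocyte and 1 endothelial or mesenchymal marker, and of 0 microglial or blood markers.

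Most wide islands were filled by 1 long gene, but some of these touched other genes as well. A protein-coding gene spanned at least 75% of the island in 318 of 396 (80.3%), against 81.6% of all autosomal islands, so the share filled by a single gene was near the background. Of these 318, 71 touched 2 protein-coding genes and 10 at least 3. Among all 396, 239 touched 1 such gene, 123 touched 2 and 31 at least 3. Of all 8207 autosomal islands, 6467, 1381 and 231 did. Islands over several neighbours, where no gene filled the island and at least 2 genes had at least 50% of their span inside it, numbered 52 (13.1%), against 4.89% of all islands. A wider island has more room for 2 genes. The share was 0.53% under 5 kb, 2.26% at 5 to 20 kb, 7.10% at 20 to 40 kb and 10.8% at 40 to 60 kb. The remaining 26 wide islands fitted neither description, and 3 of them had no protein-coding gene. An island of 73.6 kb on chromosome 15 lay wholly inside Pvt1, a long noncoding RNA gene next to Myc, and the other 2 were among the dense islands of chromosome 8.

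The widest islands lay over genes of varied function. Syne1, which encodes nesprin-1 and links the nucleus to the cytoskeleton, had the island of 177.6 kb (chr10:5097601-5275200, GRCm38), which covered 33.5% of a gene of 530.5 kb. Ptk2, encoding focal adhesion kinase, followed with 176.8 kb (chr15:73195201-73372000). Next were the deubiquitinase gene Usp34 with 156.0 kb, the corepressor gene Ncor1 with 155.2 kb and the ubiquitin ligase gene Herc1 with 139.2 kb. The H3K4 methyltransferase gene Kmt2c had 136.8 kb, the chromatin remodeller gene Chd2 133.6 kb, and Fbn2 of the extracellular matrix 131.2 kb. Vav3, a guanine nucleotide exchange factor gene, had 124.8 kb, Map2 of the microtubules 123.2 kb, and the kinase gene Tnik 121.6 kb. The other island among the 12 widest, 120.8 kb over the predicted gene Gm15319, was one of the dense islands of chromosome 8. Reads in the islands ran from 640 to 16737, with a median of 960. The lowest, over Epg5, has an exact 95% Poisson interval of 591 to 692, which covers counting error only.

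**Figure D1:**
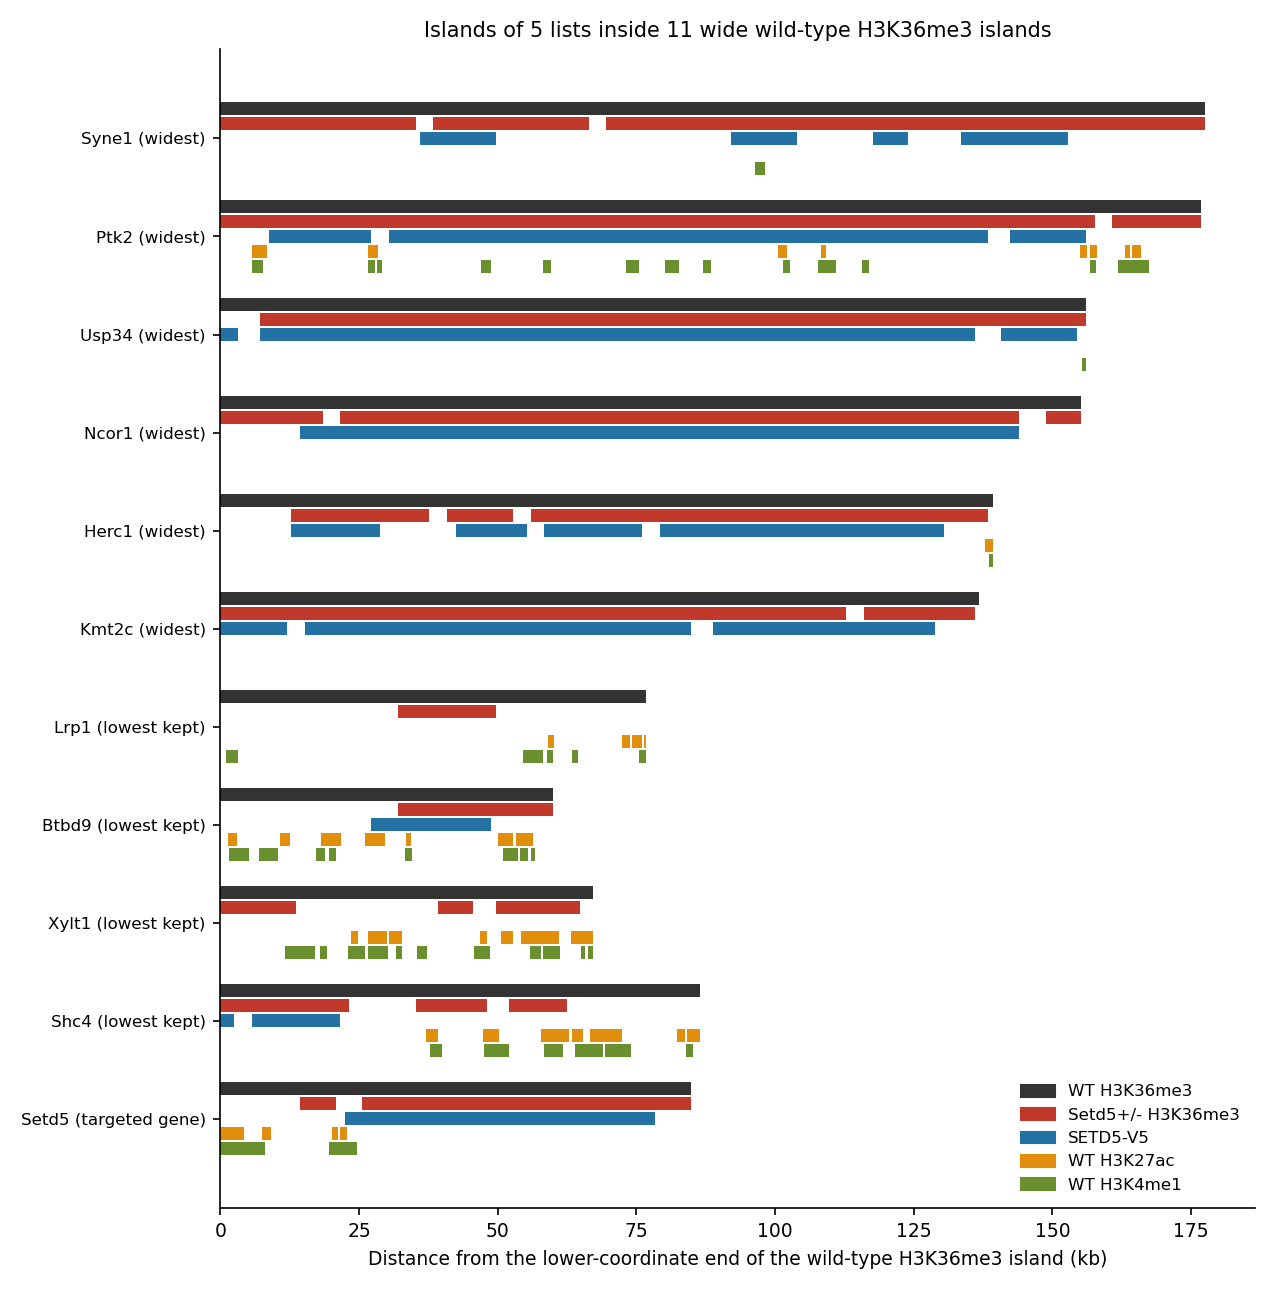
Islands of 5 lists inside 11 wide wild-type H3K36me3 islands: the 6 widest, the 4 with the lowest covered percent kept in Setd5+/- cells, and that of Setd5. The x axis is the distance in kb from the lower-coordinate end of each island, and bars are islands, cut at its edges. Setd5+/- H3K36me3 runs through most of the wide islands with short gaps, while the Lrp1 island is left with a single piece of 22.9%.

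The islands that held most genes held 4 or 5 each. The island with most genes, 64.8 kb on chromosome 17, held 5, namely Safb2 and Safb (scaffold attachment factors), Lonp1 (a mitochondrial protease), the ribosomal protein gene Rpl36 and Micos13. An island of 106.4 kb on chromosome 11 held Smurf2, Cep95, Polg2 and the RNA helicase gene Ddx5, and another of 98.4 kb held Nup88, Dhx33, Rpain and C1qbp beside Rabep1. On chromosome 13 an island of 71.2 kb held Ppwd1, Trim23, Cenpk and Shld3. Ankhd1, on chromosome 18, filled its island of 113.6 kb, which also held Apbb3, Sra1 and Eif4ebp3. In the other direction, 6 genes held 2 of the wide islands each: Eif4g3, Macf1, Nav2, Rfx4, Sbf2 and Xylt1.

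Within their genes, the islands sat more often towards the 3′ end than towards the start. For 245 islands filled by a single gene of known strand, the dense Cwc22 island left out, the island began a median of 19.5 kb after the annotated gene start (quartiles 2.77 and 62.5 kb). It ended a median of 1.54 kb past the annotated gene end. In all, 119 islands began more than 20 kb inside the gene, and 168 ran past its end. Another 81 began within 5 kb of the gene start or before it, and 35 stopped more than 20 kb before the gene end. The median span of these genes was 102.5 kb, and 76 of them were covered over at least 90%. Islands of 40 to 60 kb, 451 of them, had medians of 13.5 kb after the start and 1.47 kb past the end. These positions are a description of the wild-type library that chose the islands.

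Genes of chromatin regulation and ubiquitin transfer were among those under the wide islands. A gene counted as under an island when at least 50% of its span was inside one, or when it was the gene with the longest overlap. That held for 509 of 20665 autosomal protein-coding genes (2.46%) and for 330 of the 3981 with a span of at least 60 kb (8.29%). Of genes that long, 13 of 16 ubiquitin ligases and deubiquitinases were under an island, 14 of 32 chromatin remodellers and histone modifiers, 6 of 12 H3K36 enzymes and readers, and 7 of 16 genes of the cell cycle and DNA repair. For neural stem cell and radial glia genes it was 5 of 13, for transcription and RNA processing 5 of 16, and for synapse and adhesion 1 of 18, the catenin gene Ctnnd2. Gene length is part of the rule, and the lists were chosen with earlier results of these data known. The 3981 genes were also not limited to transcribed ones. These counts are therefore a description, and no enrichment is read from them.

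SETD5-V5 lay over most of the wide islands. Of the 396, 387 (97.7%) touched at least 1 SETD5-V5 island, against 53.2% of all autosomal H3K36me3 islands, and 310 (78.3%) were under SETD5-V5 over at least 50% of their length, against 43.8%. A wider island meets another list more easily, so the covered share of bases stands beside these counts. SETD5-V5 covered 69.1% of the bases of the wide islands. The share was 16.2% for islands under 5 kb, 28.8% for 5 to 20 kb, 49.8% for 20 to 40 kb and 63.1% for 40 to 60 kb, so it was higher in each wider class. The median per wide island was 75% (quartiles 52.5% and 88.8%), and within the wide set width and SETD5-V5 coverage did not run together (Spearman's correlation 0.01 over 396 islands, given as a description).

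The islands at the extremes of SETD5-V5 coverage were few. Full coverage was found at 14 of the 396 islands. It was found at 533 of all 8207 autosomal islands and at 28 of the 697 of 40 to 60 kb, so it was not more frequent in the wide set. Besides the 5 dense ones the 14 were Arfgef1 (an Arf exchange factor), Cep192 (centrosome), Cul1 (a cullin scaffold of ubiquitin ligases), Cnot1 (the CCR4-NOT deadenylase), Psmd1 (proteasome), Tnrc6b (microRNA silencing), Phf20l1 (a chromatin reader), the H3K36 methyltransferase gene Nsd2, and Srgap2. Of the 14, 3 lie on chromosome 1 and 2 on chromosome 15. No SETD5-V5 island touched 9 islands, which lay over Lrp1 (an endocytic receptor), Nav2, Pvt1, Epg5 (autophagy), Chn2, Xylt1 (the enzyme that starts glycosaminoglycan chains), Kif13b (a kinesin), the cadherin gene Cdh20 and Pdlim5. These 9 had a median of 10.7 reads per kb in the wild-type H3K36me3 library, against 13.0 over all wide islands.

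Most of the H3K36me3 of the wide islands was also called in Setd5+/- cells. The covered percent kept, meaning the share of an island's bases inside any Setd5+/- H3K36me3 island, was 91.6% over all wide islands. It was 65.6% for islands under 5 kb, 70.6% for 5 to 20 kb, 81.5% for 20 to 40 kb and 88.3% for 40 to 60 kb. The median per wide island was 94.1%. Kept whole were 71 islands (17.9%), a lower share than the 28.6% of all autosomal islands and the 26.4% at 40 to 60 kb. Without chromosomes 1, 4 and 15, 32 of 306 (10.5%) were kept whole. In all, 277 islands (69.9%) were kept over at least 90%, against 47.7% of all autosomal islands, and 29 were kept over less than 75%, against 30.9% of all. None lost every base, against 10.4% of all. Without chromosomes 1, 4 and 15 the kept percent of bases was 90.3%, and 199 of 306 islands (65.0%) were kept over at least 90%.

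**Figure D2:**
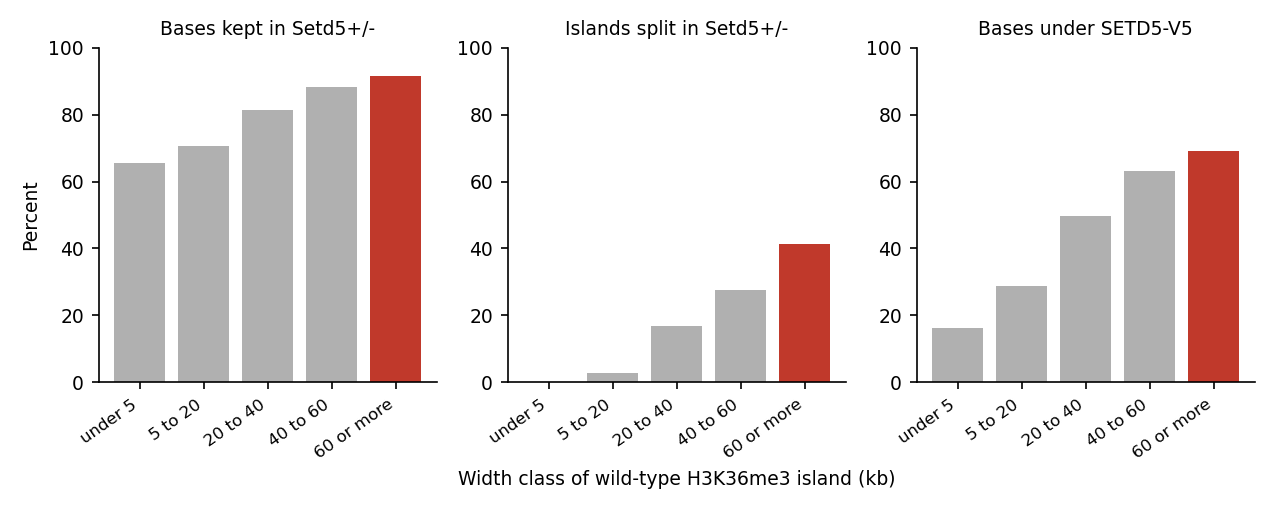
Values by width class of autosomal wild-type H3K36me3 islands (x axes, kb), as percent of bases or of islands (y axes, from 0 to 100). The kept share of bases is 65.6% in the narrowest class and 91.6% at 60 kb or more, SETD5-V5 coverage 16.2% and 69.1%, and the share of islands split 0% and 41.4%.

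Although most bases were kept, many wide islands were broken into pieces. In Setd5+/- cells 164 (41.4%) were met by at least 2 separate H3K36me3 islands, against 10.7% of all autosomal islands. Of these, 121 were in 2 pieces, 37 in 3, 5 in 4 and 1 in 5. The caller joins windows across gaps of up to 2400 bp, and most breaks were little longer: the largest gap of a split island had a median of 4 kb and a range of 3.2 to 25.6 kb. With Setd5+/- gaps of up to 4800 bp closed, 43 islands (10.9%) stayed split. Of the 164, 82 were still kept over at least 90%. Gaps inside the islands took 3.59% of all bases and losses at the edges 4.83%. A wider island has more room for a gap, so the share of bases in gaps stands beside the count: it was 0.91% for islands of 5 to 20 kb, 2.95% for 20 to 40 kb and 3.44% for 40 to 60 kb, close to that of the wide islands. Losses at the edges took 28.5%, 15.6% and 8.23% in these classes.

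Islands chosen by width in the other genotype were also broken, to an extent that depended on the chromosomes counted. There were 408 autosomal Setd5+/- H3K36me3 islands of at least 60 kb. Of these, 170 (41.7%) lay over at least 2 wild-type islands, and 85.0% of their bases were inside wild-type islands. Without chromosomes 1, 4 and 15, 84 of 241 (34.9%) lay over at least 2 wild-type islands and 93.0% of bases were inside them, beside 139 of 306 (45.4%) and 90.3% for the wild-type islands. Chromosome 1 alone held 106 of the 408.

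The wide islands of chromosome 1 differed from the rest in how much was kept. All 43 were kept over at least 90%, with a median of 100%, and 8 were split. The median was 98.5% for the 20 islands of chromosome 15 and 94.7% for the 27 of chromosome 4. SETD5-V5 coverage was also high on chromosome 1, with a median of 88.5% against 71.7% over the 306 islands outside the 3 chromosomes. It was 84.4% on chromosome 15 and 76.3% on chromosome 4. The higher read density of chromosome 1 in the Setd5+/- library, given above, moves with the kept percents, and its part in them was not tested. SETD5-V5 comes from a separate library, whose read density by chromosome was not compared.

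The least kept islands lay mostly over long genes with little SETD5-V5. At Lrp1 (chr10:127540801-127617600, 76.8 kb, 821 reads) 22.9% was kept, as a single piece in the middle of the island, and no SETD5-V5 island touched it. An island of 60 kb on chromosome 17, partly over Btbd9 and over all of Glo1, a gene of methylglyoxal detoxification, kept 46.7%. Xylt1 kept 52.4% in 3 pieces, with a gap of 25.6 kb, the longest of any wide island. Next were the adaptor gene Shc4 with 53.7%, Sbf2 with 56.8% and Kif13b with 57.8%. Pkd1 and Tsc2, neighbouring genes of polycystin-1 and of the TSC complex, shared an island of which 58.1% was kept. The heparan sulfate sulfatase gene Sulf2 kept 58.9%, Tasor of the HUSH silencing complex with Ccdc66 61.1%, and Dop1a 61.9%. Of these 10 islands, Tasor, at 82.1%, and Dop1a, at 67.6%, had SETD5-V5 over more than 50%. None of the 10 lies on chromosome 1, 4 or 15.

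Some of these losses were one-sided, when each island was cut at its midpoint. At Sulf2, 82.2% of the side nearer the gene start was lost and 0% of the side nearer the gene end. At Tasor the values were 77.9% and 0%. Pkd1 and Sbf2 went the other way, with 18.6% lost nearer the start of Pkd1 and 65.1% nearer its end, and 18.2% and 68.2% for Sbf2. At Herc1, the least kept of the 12 widest islands with 85.6%, 27.6% was lost nearer the gene start and 1.15% nearer the end. Syne1, in contrast, kept 96.4% with SETD5-V5 over only 28.8%.

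Setd5, the gene mutated in the Setd5+/- cells, lay under a wide island itself. The island (chr6:113078401-113163200, 84.8 kb, 1207 reads) covered 98.5% of the gene, and SETD5-V5 covered 66.0% of it. It kept 77.4% in 2 pieces, and the loss lay on the side of the gene start, with 45.3% lost there and 0% on the side of the gene end. The other H3K36 methyltransferase genes under wide islands were kept further, with Setd2 at 91.8%, Nsd3 at 92.0%, Nsd1 at 98.9%, and Nsd2 and Ash1l at 100%. Setd2 and Nsd3 were in 2 pieces and the other 3 in 1.

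Among the gene lists, the islands over chromatin genes were kept evenly. All 15 were kept over at least 90%, from 91.4% at the acetyltransferase gene Crebbp to 100% at the remodeller genes Smarca4 and Smarcc1, the scaffold gene Trrap and the cohesin loader gene Nipbl, and 4 were split. For the 13 ubiquitin ligases and deubiquitinases the range was 85.6% at Herc1 to 100%, as at Trip12 and Birc6, with 10 kept over at least 90%. Of the 9 cell cycle and repair genes, 8 reached that level, among them Atm at 96.8% and the microcephaly gene Aspm at 100%, while Cul1 kept 81.0%. Of the 7 transcription and RNA processing genes 6 reached it, and Cnot1 kept 87.8%. All 5 neural stem cell genes did, namely Tcf4, Ptprz1, Ptn, Qk and Egfr, from 93.6% to 97.8%. Over all wide islands 69.9% reached 90%. The lists were chosen with earlier results of these data known, so these counts are a description.

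Losses were larger at the ends of the islands than in the middle, and larger towards the gene start. The 245 islands filled by a single gene were each divided into 5 equal bins in the direction of transcription. Setd5+/- H3K36me3 covered 81.7% of bin 1, 94.7% of bin 2, 96.6% of bin 3, 96.9% of bin 4 and 89.8% of bin 5. Both outer bins hold an island edge, and the bin nearer the gene start was the lower of them. Islands of 40 to 60 kb, 451 of them, gave 78.2% in bin 1 and 85.2% in bin 5, with 91.5% to 94.7% between. Without chromosomes 1, 4 and 15, bin 1 of the wide islands was at 79.4% and bin 5 at 87.6% (191 islands).

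SETD5-V5 coverage of the 245 islands was also lower in the outer bins than in the others. It was 53.8% in bin 1, 73.3% in bin 2, 75.1% in bin 3, 79.6% in bin 4 and 63.2% in bin 5. Without chromosomes 1, 4 and 15 bins 1 and 5 were at 51.9% and 59.0%, and in islands of 40 to 60 kb they did not differ, with 50.1% and 50.2%. Counting every island of a mark, the wild-type marks of promoters and enhancers were highest in bin 1 and lowest in bin 4. H3K27ac covered 7.08% of bin 1 and 1.95% of bin 4, H3K4me1 9.29% and 2.46%, and H3K4me3 4.39% and 0.096%. Islands away from gene ends, taken alone, were lowest in bin 5, with 1.28% for H3K27ac and 2.15% for H3K4me1. Bins 1 and 2 were close, with 4.21% and 4.41% for H3K27ac and 6.34% and 6.42% for H3K4me1. Without chromosomes 1, 4 and 15 they were 4.18% and 4.55%, and 6.07% and 5.58%. In islands of 40 to 60 kb bin 1 was the highest for both marks, with 2.92% and 5.87%. The distance rule takes marks mainly from the outer bins, so this order follows in part from it. H3K36me2, laid down by the NSD enzymes among others, covered 2.81% of bin 1 and 0.31% of bin 4.

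**Figure D3:**
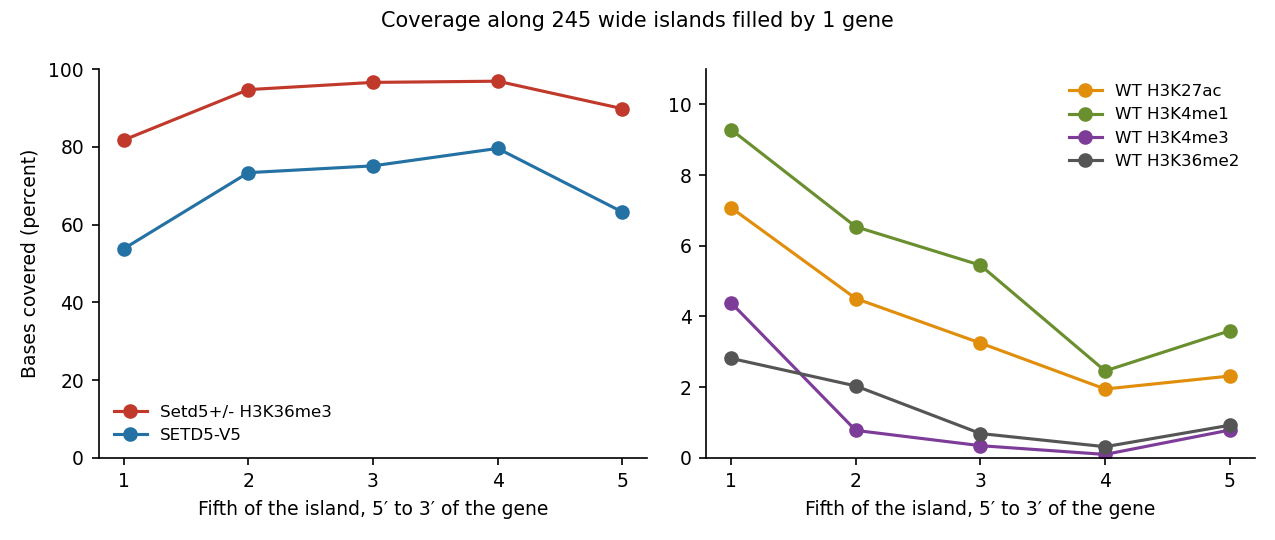
Coverage along 245 wide islands filled by 1 gene, divided into 5 equal bins from the side of the gene start (x axes), as percent of bases covered (y axes, which differ between panels). Setd5+/- H3K36me3 is lowest in bin 1 (81.7%) and highest in bin 4 (96.9%), as is SETD5-V5 (53.8% and 79.6%), while wild-type H3K4me1 is highest in bin 1 (9.29%).

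Islands over several neighbours were broken more often than those over a single gene, and at gene ends. Of the 52, 30 (57.7%) were split, against 122 of 318 (38.4%) filled by a single gene, and the kept percent of bases was 89.0% and 92.0%. With the 5 dense islands set aside, the split islands held 214 gaps. In islands over several genes, 27 of 44 gaps (61.4%) had their midpoint within 5 kb of a gene end, where 29.2% of the bases of those islands lay. In islands filled by 1 gene it was 15 of 157 gaps (9.55%), near the 11.1% of their bases. A wild-type H3K4me3 island touched 27 of the 44 gaps between or in neighbours and 19 of the 157 gaps in single genes. These counts start from unlike backgrounds, as H3K4me3 covered 3.98% of the bases of the 52 islands and 1.22% of those of the 318. Whether gaps met H3K4me3 beyond that was not tested. SETD5-V5 covered 27.5% of all gap bases, against 68.6% of all bases of these 391 islands.

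The most broken island joined Nr2c1, an orphan nuclear receptor gene, and Ndufa12 of respiratory complex I. It spanned 108.8 kb on chromosome 10, was in 5 pieces and kept 75%. Those in 4 pieces lay over Nav2 (90.2% kept), Specc1 (72.7%), Matr3 with Slc23a1 and Paip2 (70.5%), Epg5 (72.9%) and Thoc2l (72.4%). Matr3 encodes an RNA-binding protein of the nuclear matrix.

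Wide islands with little SETD5-V5 kept less. With the 5 dense islands set aside, 86 islands had SETD5-V5 over less than 50% and 305 over at least 50%. Their median kept percents were 88.7% and 95%, and 59 (68.6%) and 105 (34.4%) were split. Without chromosomes 1, 4 and 15 the medians were 87.5% and 93.9% (72 and 229 islands). Across the 391 islands Spearman's correlation between SETD5-V5 coverage and kept percent was 0.46, and across the 697 islands of 40 to 60 kb it was also 0.46. All islands come from the same libraries, so these are descriptions.

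Wild-type H3K36me3 read density moved with both measures. Its median was 12.0 reads per kb in the 86 islands and 13.4 in the 305, and its correlation was 0.49 with SETD5-V5 coverage and 0.30 with the kept percent. In 3 density classes of about equal size the medians kept were 88.3% and 91.6% in the lowest (58 and 72 islands), and 88.1% and 95.1% in the middle (24 and 106). In the highest class they were 95.2% and 96.2%, with 4 islands in the group of low SETD5-V5. The medians kept their order in each class. The share kept over at least 90% did not: in the highest class it was 4 of 4 islands of low SETD5-V5 against 109 of 127 (85.8%). The part of density was not tested further.

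**Figure D4:**
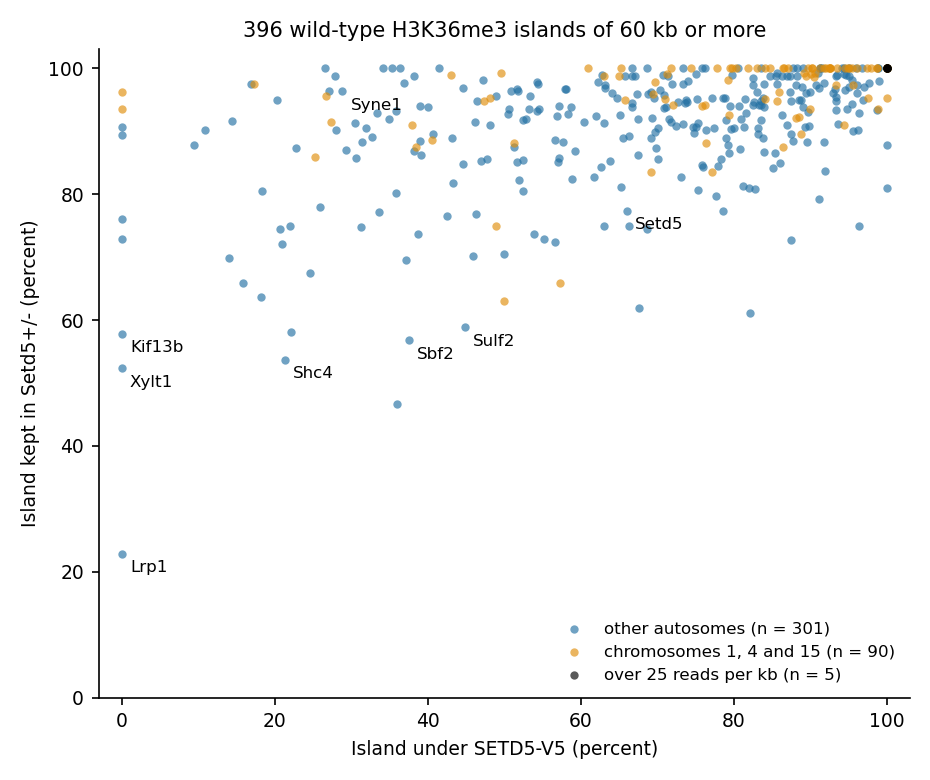
Percent of each wide island under SETD5-V5 (x axis) and percent kept in Setd5+/- cells (y axis), 1 point per island, with chromosomes 1, 4 and 15 and the 5 islands over 25 reads per kb coloured apart. Spearman's correlation is 0.46 over the 391 islands without the dense ones, and Lrp1 stands lowest with 22.9% kept and no SETD5-V5.

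Islands of enhancer-type marks lay inside many wide H3K36me3 islands. H3K27ac islands whose midpoint was at least 5 kb from either end of every protein-coding gene were found in 130 of the 396 (32.8%), against 10.8% of all autosomal islands. H3K4me1 islands of this kind were found in 189 (47.7%), against 19.6%. Per length the wide islands held 0.98 such H3K27ac islands per 100 kb, against 0.25, 0.66, 0.76 and 0.73 in the narrower classes from under 5 kb to 40 to 60 kb. For H3K4me1 it was 1.57, against 0.50, 1.32, 1.47 and 1.23. These rates are over all bases, also those within 5 kb of a gene end, where no such island could count. That share of bases was not measured by width class, so the rates of the classes are not alike in this. Counting every H3K27ac island, 3.91% of wide-island bases were covered, against 8.52%, 4.13%, 3.85% and 3.19% in these classes. For H3K4me1 it was 5.19%, against 12.1%, 6.28%, 5.82% and 4.70%. Of the 302 H3K27ac islands away from gene ends, 242 (80.1%) also touched an H3K4me1 island, 63 an H3K4me3 island, and 17 lay within 1 kb of a RefSeq gene start. The share with H3K4me1 was near that inside islands of 20 to 40 kb (83.7%) and of 40 to 60 kb (76.5%).

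The number of such islands per wide island ran from 0 to 10 for H3K27ac and from 0 to 12 for H3K4me1. Epn2, an endocytic adaptor gene, held 10 such H3K27ac islands and Pdlim5 9. Ptk2, Chd2, the lipid phosphatase gene Plpp3, Xylt1 and the kinase gene Fyn held 7 each, and Smarcc1 of the BAF remodelling complex 6. H3K4me1 was most frequent in Ptk2 with 12 islands, the RNA-binding protein gene Qk with 11, Xylt1 with 10 and Pdlim5 with 9. Ptn, Egfr, Epn2 and Plpp3 had 8 each. Ptn, encoding the growth factor pleiotrophin, also held the longest H3K27ac island outside the dense regions, 29.0 kb with 1218 reads, and the longest H3K4me1 island, 21.4 kb with 920 reads. The 5 neural stem cell genes together held 15 H3K27ac and 33 H3K4me1 islands, the 15 chromatin genes 21 and 23, and the 13 ubiquitin ligases and deubiquitinases 2 and 3, beside 302 and 483 over all 396 wide islands.

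SETD5-V5 was sparse at these intragenic islands. With the 5 dense islands set aside, SETD5-V5 covered 29.1% of the H3K27ac bases away from gene ends and 32.1% of the H3K4me1 bases, against 68.6% of all bases of the wide islands. Setd5+/- H3K36me3 covered 79.2% and 80.3% of them, against 91.4% of all bases. In the middle 60% of each island, away from its edges, the SETD5-V5 values were 34.1% and 37.1% against 75.3%, and the Setd5+/- H3K36me3 values 85.7% and 86.3% against 94.97%. Among the 305 islands with SETD5-V5 over at least 50%, SETD5-V5 covered 44.6% and 47.9% against 79.2%. The direction was the same without chromosomes 1, 4 and 15, with 27.4% and 29.1% against 66.2%.

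**Figure D5:**
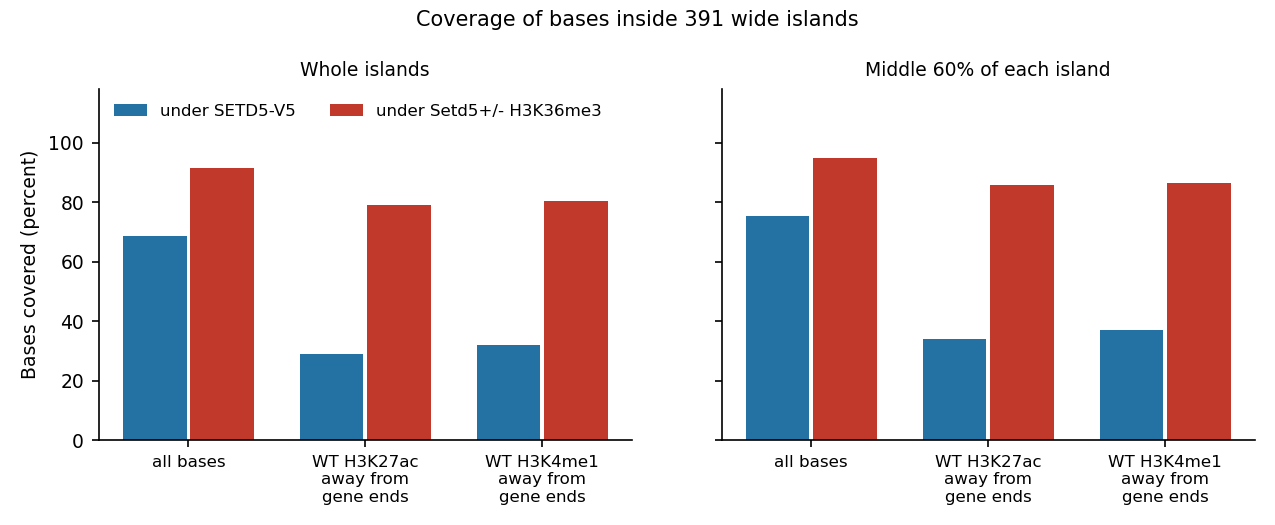
Percent of bases (y axes) under SETD5-V5 and under Setd5+/- H3K36me3, for all bases of the 391 wide islands and for the bases of wild-type H3K27ac and H3K4me1 islands away from gene ends, in whole islands and in the middle 60% of each. SETD5-V5 covers 68.6% of all bases and 29.1% of the H3K27ac bases in whole islands, and 75.3% and 34.1% in the middle parts.

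The islands with intragenic marks were more often those with little SETD5-V5. Of the 86 islands with SETD5-V5 over less than 50%, 47 (54.7%) held an H3K27ac island away from gene ends and 60 (69.8%) an H3K4me1 island. Of the 305 others, 80 (26.2%) and 128 (42.0%) did. Across the 391 islands the correlation between the number of such islands and SETD5-V5 coverage was −0.34 for H3K27ac and −0.38 for H3K4me1. With the kept percent it was −0.13 and −0.09, and −0.15 and −0.08 without chromosomes 1, 4 and 15. These values are weak, and a relation was not tested.

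In Setd5+/- cells the number of intragenic islands depended on the chromosomes counted. The wide islands held 302 of these H3K27ac islands in wild type against 335 in Setd5+/- cells, but 233 and 173 without chromosomes 1, 4 and 15. For H3K4me1 the numbers were 483 and 436, and 341 and 281 without them. Over the whole lists the Setd5+/- library had 17425 H3K27ac islands against 18633 in wild type, and 24243 H3K4me1 islands against 35464. Of the 302 wild-type H3K27ac islands, 183 (60.6%) touched a Setd5+/- H3K27ac island, and of the 483 H3K4me1 islands 329 (68.1%) touched one of that mark. Without chromosomes 1, 4 and 15 these shares were 55.8% and 63.0%. Inside islands of 20 to 40 kb and of 40 to 60 kb they were 60.9% and 56.4% for H3K27ac, and 60.9% and 60.1% for H3K4me1. Map2 on chromosome 1 had 2 H3K27ac islands in wild type and 12 in Setd5+/- cells. Ptn on chromosome 6 had 6 and 9 for H3K27ac, and 8 and 14 for H3K4me1, while Epn2 had 10 and 6, and Qk 11 and 5 for H3K4me1.

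Some islands at the limit of 60 kb and just below it are given as examples. At exactly 60 kb there were 12 islands and at 59.2 kb 14, and these were not compared as groups. Just inside, Uggt1 kept 100%, Cltc 86.7%, Drosha 100% and Btbd9 46.7%, with SETD5-V5 over 98.7%, 84.0%, 92.0% and 36%. Just outside, Gak kept 98.6%, Ahcyl2 56.8%, Mre11a 90.5% and Npat 91.9%, with SETD5-V5 over 77.0%, 0%, 62.2% and 78.4%.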

How the data were processed

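The analysis used the island lists of 13 libraries; the 3 inputs are not analysed here. The submitters' processing notes name FastQC, Bowtie2 2.2.3, SICER 1.1 and the build GRCm38 (mm10). Window, gap and false discovery rate were 800 bp, 2400 bp and 0.01 for H3K36me3, H3K36me2 and SETD5-V5, per the file headers. Widths in the other lists are multiples of 200 bp. Each island's deposited whole number has no column name, and its values were taken as counts of reads that the authors did not normalise as far as any header says. It is not given in the sources used here if inputs served as controls, and depth outside islands is unknown.

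Python 3.11.15 (numpy 2.4.6, pandas 2.3.3, scipy 1.17.1) gave overlaps of 1 bp or more and covered bases, and matplotlib 3.10.9 drew the figures. Genes were 21887 protein-coding genes of RefSeq on GRCm38.p6, and strand came from its promoter table for 17492. Named islands were the 12 widest, those at the width limit, the extremes of each measure and those over genes of 7 lists, with predicted genes skipped unless alone. The islands, lists and rules were chosen with earlier results of these data known. Alternatives varied the width limit, gene fill, distances, densities, gap closing and chromosomes. The steps were tested on simulated data.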

Additional observations from a re-analysis of the deposited data

How the results depend on the processing

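With 1 library per group no replicate could be left out, and no paired analysis was possible because each group has 1 library. Of 62 alternative settings over 9 results, 35 stayed within the 95% Wilson interval of the value or share reported and 27 did not. That interval treats islands, or windows of 800 bp, of 1 library as independent, so it only sets a scale and is no spread between samples. Leaving out the 5 islands of more than 25 reads per kb, an alternative chosen after seeing the data, moved none.

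With a limit of 80 kb, 100% of islands touched SETD5-V5, 38.8% held H3K27ac and 55.8% H3K4me1 away from gene ends, 76.0% were kept over at least 90%, 46.5% were split, and 92.9% of bases were kept. With 50 kb, 41.6% held H3K4me1 and 90.7% of bases were kept. A gene filled 93.7% of islands at a fill of 50% and 65.7% at 90%, with 4.04% and 18.4% over several genes. SETD5-V5 islands of at least median density touched 74.0% of islands and covered 50% or more of 49.0%, and 93.4% were covered over at least 25%. Islands of at least median density left 17.9% with H3K27ac and 33.6% with H3K4me1, and a distance of 2 kb gave 53.0% with H3K4me1.

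Without chromosomes 1, 4 and 15, 65.0% of islands were kept over at least 90%, and 90.3% of bases. Closing Setd5+/- gaps of up to 4800 bp gave 78.5% kept over at least 90%, 10.9% split and 93.7% of bases kept. Counting islands kept over at least 75% gave 92.7%. Without the 25% of Setd5+/- islands of lowest density 33.6% were split and 88.6% of bases kept, and at equal covered length of the genotypes 91.0% of bases were kept. Gaps were closed in the Setd5+/- list only; a wider gap in both lists, which would also change the islands that reach 60 kb, was not run.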
